A study of Mus musculus with 19 samples.

Results

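A set of 10 genes of liver tumour biology and growth control were followed through the CpG methylation of mouse liver. They were chosen from the deposited tables themselves, as genes with listed CpG sites inside them or within 2 kb of either end by RefSeq coordinates, so that they are 10 of 21887 protein-coding genes and their being listed is no finding. The groups were 5 Mat1a knockout (KO) mice given S-adenosylmethionine (SAMe) as a supplement, 6 Mat1a KO mice given placebo and 8 wild-type (WT) mice with no treatment, all 10 months old. Treatment lasted 8 weeks by the title of the series. The WT mice received neither placebo nor SAMe, so each difference from WT holds genotype and procedure together. The labels give the genotype as KO alone and name no tissue, promoter or Cre for it.

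Methylation was read by reduced-representation bisulfite sequencing, which converts unmethylated cytosines and sequences the fragments between cut sites of restriction enzymes, here MspI (CCGG) and TaqαI (TCGA). Every value is a group difference in percentage points from one of the authors' 3 deposited tables, with its q-value (a p-value adjusted for the number of sites). Methylation levels, coverage and values of single mice are not part of these tables, so depth is unknown, no difference carries an SD, and the labelled tissue could not be checked. They list sites past an absolute difference of 20 points, and a site that is missing from a table either fell short or was not covered. Differences are read as KO minus WT and as SAMe minus placebo; the tables do not state this order, and all signs would turn together if it were the opposite. The same 8 WT mice enter both comparisons with WT. In whole liver DNA, a different mix of cell types and a different level within cells cannot be told apart.

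Mat1a encodes the liver enzyme that makes SAMe, the donor of the methyl groups placed on DNA, and mice without it are known to develop fatty liver disease and later liver cancer. The 10 genes stand at successive steps of growth control. Growth factors such as TGF-alpha and receptors such as Met start Ras and MAP kinase signalling, and Dab2ip, Rassf1 and Dusp1 act on that cascade as brakes or tumour suppressors. Socs1 limits cytokine signalling, Sfrp1 limits Wnt signalling, p53 and the inhibitor p27 (Cdkn1b) hold the cell cycle, and Afp is a fetal liver protein used as a marker of liver cancer. In many tumours, suppressor genes such as Rassf1, Socs1 and Sfrp1 are known for methylation gained at their promoters.

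All listed sites in the 10 genes were lower in the KO groups. In SAMe-treated KO against WT, the authors' deposited table held 26 sites in 9 of the 10 genes, all lower, from −33.9 to −20.2 points with a median of −27.4. In placebo-treated KO against WT, the authors' deposited table held 27 sites in all 10 genes, all lower, from −43.3 to −20.02 points with a median of −27.3. Over the whole genome, 10.8% of coding genes had a listed site in SAMe-treated KO against WT (10.7% a lower one) and 12.5% in placebo-treated KO against WT, and the rule picked the 10 genes from among these. Lower values made up 99% of all listed sites in the SAMe comparison and 99.4% in the placebo comparison, so the shared direction of the 10 genes is that of the table as a whole. The median over all listed sites was −26.6 for SAMe-treated KO and −25.9 for placebo-treated KO in the authors' deposited tables, close to the medians of the 10 genes.

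**Figure D1:**
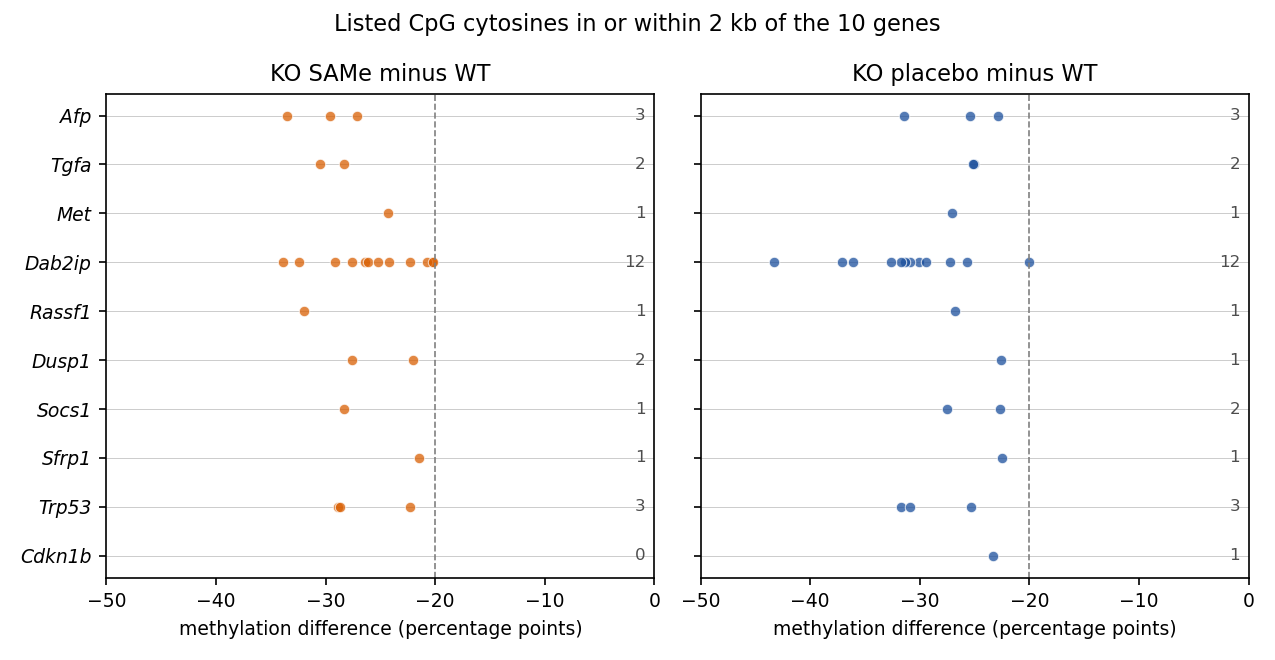
Methylation difference from WT (percentage points, horizontal axis) of each listed cytosine in or within 2 kb of the 10 genes, for SAMe-treated KO (left) and placebo-treated KO (right); each point is 1 cytosine, the number at the right edge of a row counts them, and the dashed line marks the 20-point limit of the tables. All points lie below that limit, Dab2ip has 12 in each panel, and Cdkn1b has 0 on the left and 1 on the right.

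The sites of the 9 genes with annotated starts at hand were not at transcription starts. RefSeq promoter windows, running from 250 bases before an annotated start to 50 bases from it, were at hand for 9 of the 10 genes (all but Sfrp1), with 13 windows in all. None of the 30 listed positions of these 9 genes lay in such a window, and the Sfrp1 position could not be checked. Of the 8525 listed positions in the 3 tables together, 97 (1.14%) lay in the window of any gene. The count of 0 of 30 is near that background. Annotated starts were taken from these windows. The distance to the nearest one of the gene was 790 to 48301 bp, with a median of 2891 bp over the 30 positions of the 9 genes. The nearest position, in Tgfa, lay 606 bp from the RefSeq extent of the gene, which begins before that start. Only 4 of the 30 lay within 1 kb of a start and 13 lay over 10 kb away. Inside the gene were 28 of the 31 positions, and the other 3 lay upstream of Tgfa and Rassf1.

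**Figure D2:**
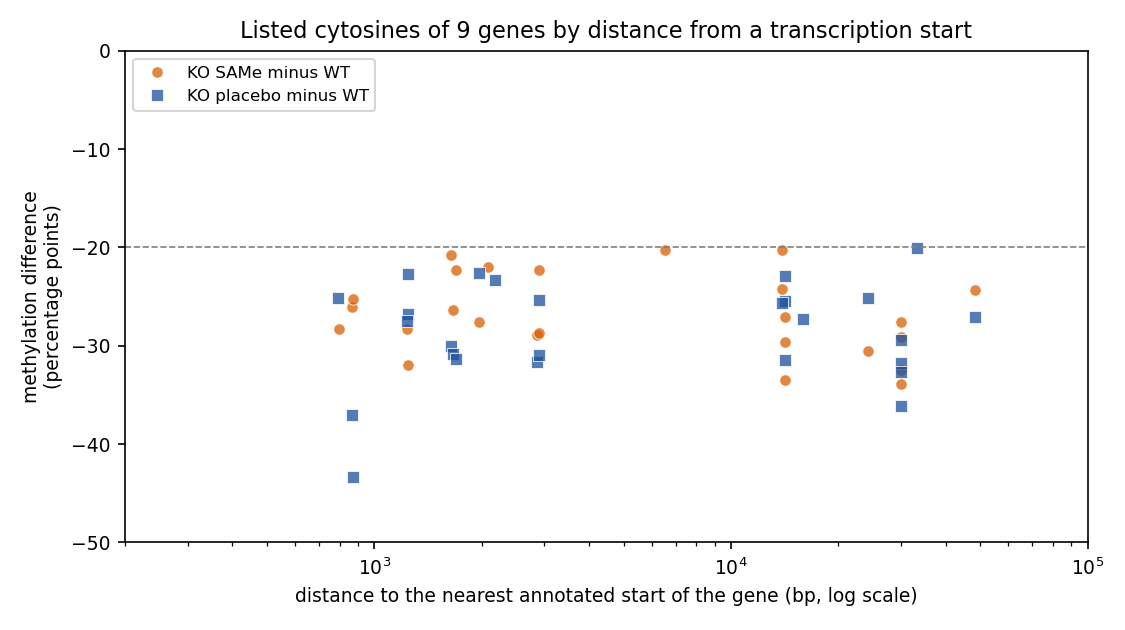
Methylation difference from WT (percentage points) against the distance to the nearest annotated start of the same gene (bp, log scale) for the 9 genes with a promoter window; circles are SAMe-treated KO, squares placebo-treated KO, and the dashed line is the 20-point limit. No point lies closer than 790 bp, and the lowest point, −43.3 in placebo-treated KO, is a Dab2ip cytosine 874 bp from a start.

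The recognition motifs of the enzymes were present in most of the promoter windows. A CCGG or TCGA, both of which read the same on either strand and cannot overlap each other, was present in 12 of the 13 windows, against 60.5% of the 32851 windows of all genes. The windows were also richer in CpG, with a median of 24 per window against 7 over all genes. A match is only a stretch of letters, and it does not show that a fragment was sequenced. A window of each of 3 suppressor genes is printed to show how they differ in CpG and in these motifs, with CCGG and TCGA in capitals (RefSeq, GRCm38.p6, each 5′ to 3′ on the strand of the gene). The window at the first of 2 annotated Rassf1 starts (chr9:107551305-107551604, plus strand) holds 27 CpG and 2 CCGG, the Socs1 window (chr16:10785487-10785786, minus strand) 18 CpG and 4 CCGG, and the Trp53 window (chr11:69580109-69580408, plus strand) 10 CpG and neither motif.
Rassf1: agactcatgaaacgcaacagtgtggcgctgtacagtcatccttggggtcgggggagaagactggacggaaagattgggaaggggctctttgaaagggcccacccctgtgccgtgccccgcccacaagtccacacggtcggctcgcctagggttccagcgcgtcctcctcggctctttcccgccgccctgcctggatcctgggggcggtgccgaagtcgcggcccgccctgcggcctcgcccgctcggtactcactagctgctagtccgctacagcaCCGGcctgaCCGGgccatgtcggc
Socs1: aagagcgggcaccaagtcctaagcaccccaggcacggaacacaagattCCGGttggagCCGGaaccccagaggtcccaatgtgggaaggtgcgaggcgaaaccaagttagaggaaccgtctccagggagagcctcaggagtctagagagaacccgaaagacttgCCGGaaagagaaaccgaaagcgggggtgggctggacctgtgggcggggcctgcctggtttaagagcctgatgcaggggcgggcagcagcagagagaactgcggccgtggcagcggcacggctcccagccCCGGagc
Trp53: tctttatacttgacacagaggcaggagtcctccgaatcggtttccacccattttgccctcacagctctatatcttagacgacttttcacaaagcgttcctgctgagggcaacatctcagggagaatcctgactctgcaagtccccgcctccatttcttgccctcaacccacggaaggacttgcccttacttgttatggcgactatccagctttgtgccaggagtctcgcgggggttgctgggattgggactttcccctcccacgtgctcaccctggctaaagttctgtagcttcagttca

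Afp, the fetal serum protein gene, had 3 lower sites within 48 bp (chromosome 5, 90504880 to 90504927, mm10), 14.2 kb inside the gene and far from its start. In SAMe-treated KO they stood at −33.5, −29.6 and −27.1 points from WT in the authors' deposited table, all with q listed as 0. In placebo-treated KO the same cytosines stood at −31.4, −25.4 and −22.9 points in the authors' deposited table, with q of at most 4.6e-14. The order of the 3 cytosines was the same in both groups, and sites this close can share sequenced fragments, so they count as 1 place rather than 3.

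Tgfa, which encodes a ligand of the EGF receptor, had a pair of listed places. Upstream of the start, position 86194425 of chromosome 6 stood at −28.3 points in SAMe-treated KO (q = 7e-09) and position 86194432, 7 bp away, at −25.1 points in placebo-treated KO (q = 1.63e-12) in the authors' deposited tables. The cytosine listed differed between the tables there, and these sites lay 797 and 790 bp before the annotated start. Inside the gene, 24.2 kb from the start, position 86219450 was listed for both groups, at −30.5 points in SAMe-treated KO (q = 3.68e-13) and −25.1 points in placebo-treated KO (q = 7.4e-10) in the authors' deposited tables.

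Met, the receptor of hepatocyte growth factor, had 1 listed site in a gene of 110.6 kb. It lay at position 17512258 of chromosome 6, 48.3 kb from the annotated start, and stood at −24.3 points in SAMe-treated KO and −27.0 points in placebo-treated KO, with q listed as 0 in both of the authors' deposited tables.

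Dab2ip, a Ras GTPase-activating protein that switches Ras off, carried far more sites than the other genes. Its 14 listed positions fell into 7 places along chromosome 2 when positions within 100 bp were joined, and 12 were listed in each comparison with WT. In SAMe-treated KO they ran from −33.9 to −20.2 points, and in placebo-treated KO from −43.3 to −20.02 points, in the authors' deposited tables. Only 8 coding genes had more listed sites in the SAMe comparison and 17 in the placebo comparison, beside a median of 1 site per gene with any. Dab2ip is also long, 172.5 kb, against a median of 17.2 kb over all coding genes, and had 0.68 sites per 10 kb of the gene and its window in each comparison. By that measure Trp53, at 1.93 per 10 kb, and Afp, at 1.35 per 10 kb, were denser in both comparisons, as were the short genes Dusp1 and Socs1.

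The 7 Dab2ip places were unequal. The densest, 4 cytosines within 12 bp (35662028 to 35662039), averaged −30.8 points in SAMe-treated KO and −32.5 points in placebo-treated KO in the authors' deposited tables. It lay 103.6 kb downstream of the first annotated start and 30.0 kb before the last. The place nearest to a start was a pair of cytosines (35692858 and 35692868), 864 and 874 bp downstream of the last of 4 annotated starts. There the authors' deposited tables gave −26.1 and −25.2 points in SAMe-treated KO (q = 1.82e-08 and 6.91e-08), against −37.1 and −43.3 points in placebo-treated KO (q listed as 0). The value of −43.3 was the lowest in the 10 genes, and 209 coding genes had a lower site in placebo-treated KO against WT.

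Another place, 3 cytosines within 45 bp (35623627 to 35623671), lay 1646 to 1690 bp downstream of another Dab2ip start. It averaged −23.1 points in SAMe-treated KO and −30.7 points in placebo-treated KO in the authors' deposited tables. Position 35678101 stood at −24.2 points in SAMe-treated KO and −25.7 points in placebo-treated KO in the authors' deposited tables. The remaining 4 positions were each listed for 1 group. They stood at −20.3 (35589393) and −20.2 (35678095) points in SAMe-treated KO, and at −27.3 (35598734) and −20.02 (35655184) points in placebo-treated KO, in the authors' deposited tables. The last of these was the member site nearest to the limit of the tables.

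**Figure D3:**
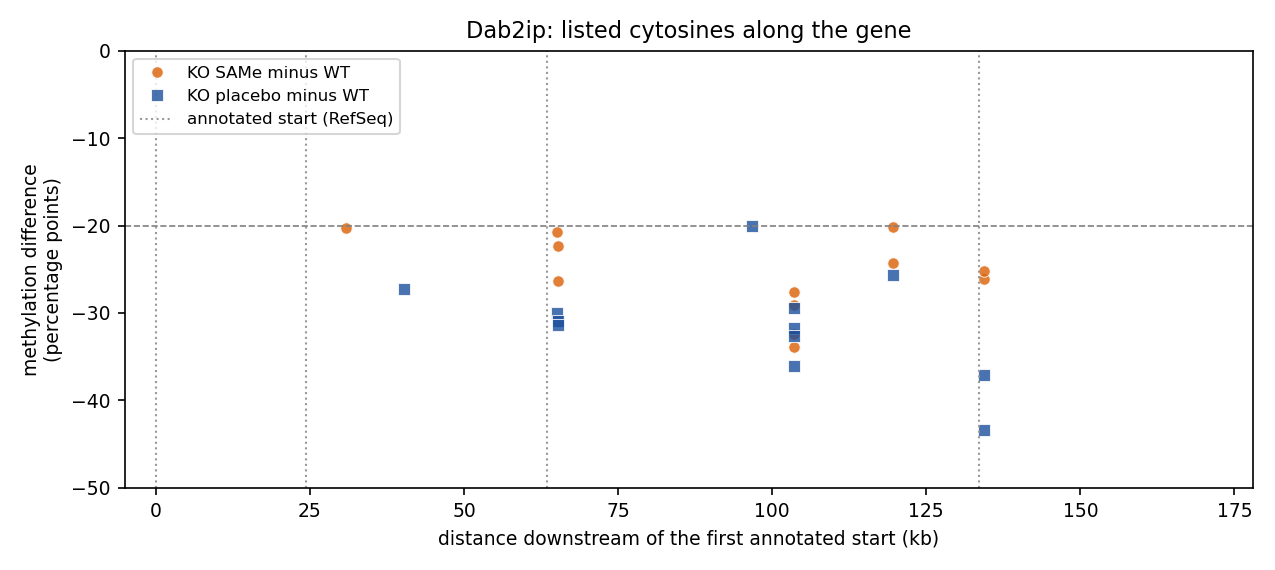
Methylation difference from WT (percentage points) of the listed Dab2ip cytosines by distance downstream of the first annotated start (kb); circles are SAMe-treated KO, squares placebo-treated KO, dotted vertical lines the 4 annotated starts, and the dashed line the 20-point limit. The groups lie furthest apart at the pair beside the last start, at −26.1 and −25.2 for SAMe-treated KO against −37.1 and −43.3 for placebo-treated KO.

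Rassf1, a Ras-association tumour suppressor, had 1 listed site, which lay outside the gene. Position 107550314 of chromosome 9, 1241 bp before the first annotated start, stood at −31.9 points in SAMe-treated KO and −26.8 points in placebo-treated KO, with q listed as 0 in both of the authors' deposited tables. The same position is inside the neighbouring gene Zmynd10, and the files do not assign it to either gene. The Rassf1 window printed above begins nearly 1 kb further downstream, and neither it nor the window at the second start held a listed site.

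Dusp1, a phosphatase that inactivates MAP kinases, and Socs1, a feedback inhibitor of JAK-STAT signalling, are short genes of 2.88 and 1.73 kb. In Dusp1, position 26506510 of chromosome 17, 1962 bp downstream of the start, stood at −27.6 points in SAMe-treated KO (q listed as 0) and −22.6 points in placebo-treated KO (q = 1.37e-13) in the authors' deposited tables. A second Dusp1 position, 26506392, was listed for SAMe-treated KO alone, at −22.0 points (q = 3.2e-08) in the authors' deposited table. In Socs1, position 10784304 of chromosome 16, 1232 bp downstream of the start, stood at −28.3 points in SAMe-treated KO and −27.5 points in placebo-treated KO, with q listed as 0 in both of the authors' deposited tables. Its neighbour 10784293 was listed for placebo-treated KO alone, at −22.7 points (q = 5.58e-15) in the authors' deposited table.

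Sfrp1, a secreted protein that binds Wnt ligands, had 1 listed site at position 23422298 of chromosome 8, inside the gene. It stood at −21.5 points in SAMe-treated KO (q = 3.06e-05) and −22.5 points in placebo-treated KO (q = 5.5e-08) in the authors' deposited tables. These were the values closest to the 20-point limit among the genes listed for both groups, comparing the lowest site of each.

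Trp53, the mouse p53 gene, had 3 lower sites within 31 bp of chromosome 11 (69583221 to 69583251), about 2.9 kb downstream of the start. In SAMe-treated KO they stood at −28.9, −28.7 and −22.3 points in the authors' deposited table, in the order of position. In placebo-treated KO the same cytosines stood at −31.7, −25.3 and −30.9 points in the authors' deposited table. The q-values were at most 2.94e-06 in SAMe-treated KO and 4.37e-08 in placebo-treated KO in the authors' deposited tables.

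The last pair of Trp53 positions, 69583250 and 69583251, are the plus-strand and minus-strand cytosines of 1 CpG, and give a view of measurement error that the tables otherwise lack. The plus and minus strand differed by 6.35 points in SAMe-treated KO and by 5.62 points in placebo-treated KO, in opposite directions. Across the genome, 21 CpG in the SAMe comparison and 23 in the placebo comparison had both strands listed, with the same sign at every one. The gap between strands had a median of 5.0 points in the SAMe comparison and 5.71 points in the placebo comparison, and at 90% of these CpG it was at most 14.7 and 14.8 points. Both strands come from the same animals, and a CpG enters only if both pass the limits, so these gaps do not include the spread between mice.

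Cdkn1b, which encodes the cell cycle inhibitor p27, was listed for placebo-treated KO alone. Position 134922584 of chromosome 6, 2183 bp downstream of the start, stood at −23.3 points with q listed as 0 in the authors' deposited table. Just outside the 2 kb window of the gene, 3802 bp away, position 134916599 was listed for both groups, at −24.9 points in SAMe-treated KO and −22.7 points in placebo-treated KO with q listed as 0 in the authors' deposited tables. No other listed site lay between 2 and 10 kb from any of the 10 genes.

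Between the KO groups, 0 of the 10 genes had a listed site, against 0.658% of coding genes (144 of 21887). The submitters' processing notes name methylKit, without saying at which step it was used. The deposited table lists only sites past its limits, so a count at an unadjusted p could not be made. At 22 positions of the 10 genes a difference from WT was listed for both KO groups, which gives the SAMe minus placebo difference by subtraction. This was checked at the 26 sites found in all 3 tables, where subtraction and the authors' own difference differed by at most 1e-08 points.

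By subtraction from the authors' deposited tables, the SAMe minus placebo differences at these 22 positions ran from −5.39 points in Tgfa to 18.1 points in Dab2ip, with a median of 1.63. Over all 3707 positions listed for both groups the median was −0.46. Dab2ip gave 10 of the 22 positions, all of them positive, so the median of 1.63 rests largely on that gene. Absolute values were under 10 points at 20 of 22 positions (90.9%), and at 91.7% of the 3707. Listing in both tables keeps out positions that came within 20 points of WT in either group, which narrows this range.

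SAMe-treated KO was higher than placebo-treated KO by subtraction at 14 of the 22 positions, and at 1694 of the 3707 (45.7%) across the genome. Dab2ip was higher in SAMe-treated KO than in placebo-treated KO at 10 of 10 positions, by 0.19 to 18.1 points. The 10 positions lie in 4 places, and at the densest of them the difference averaged only 1.72 points. At the pair beside the last start it was 11.0 and 18.1 points, and 17 of the 3707 positions had a larger positive value. Neither reached the 20-point limit of the tables, and the spread between mice is unknown. Afp was lower with SAMe at 3 of 3 positions, by subtraction at −2.06 to −4.26 points, as were Tgfa (−5.39), Rassf1 (−5.15), Dusp1 (−5.03) and Socs1 (−0.78) at 1 position each. At the Trp53 CpG read on both strands the subtracted value was −3.38 points on the plus strand and 8.59 points on the minus strand, so its sign depended on the strand. Met (2.74) and Sfrp1 (1.03) had positive values at 1 position each.

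**Figure D4:**
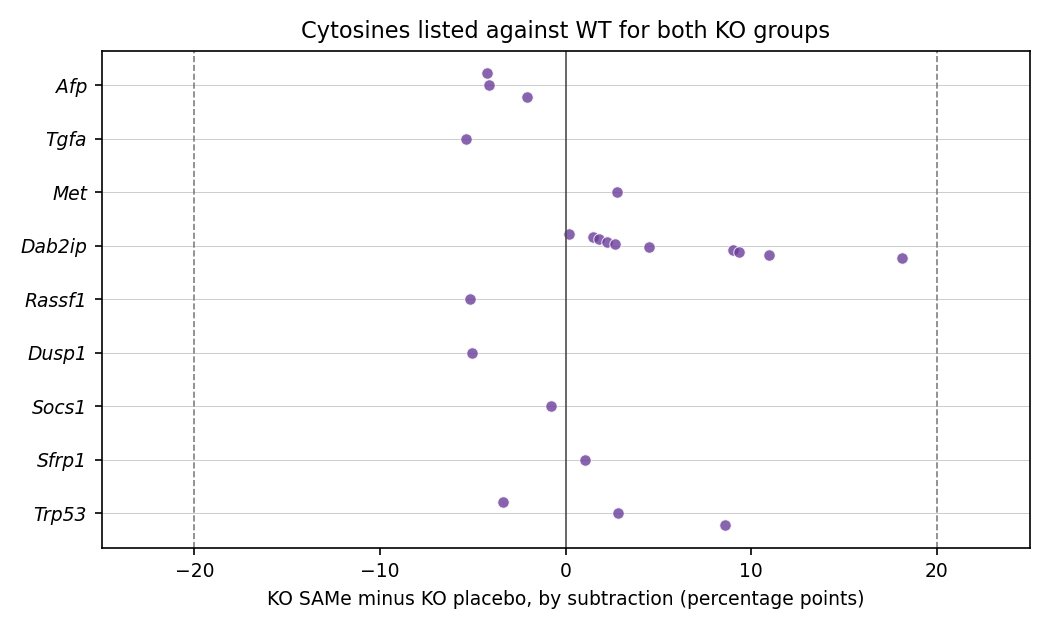
SAMe-treated KO minus placebo-treated KO (percentage points), by subtraction of the differences from WT, at the 22 positions of 9 genes listed for both KO groups; each point is 1 cytosine, spread vertically within a gene, the solid line is 0 and the dashed lines the 20-point limit. The 10 Dab2ip points lie to the right of 0, up to 18.1, the 3 Afp points to the left, and no point reaches a dashed line.

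The 10 genes were set beside 94 other genes of liver tumour biology and growth control, from a list of 104. The list gives each gene a single role. Of these 94, 7 Hippo pathway genes and 20 further suppressors and oncogenes stand under roles to which the list assigns none of the 10 genes. This is a matter of labels, since Rassf1 and Trp53, placed under other roles, are tumour suppressors too. In SAMe-treated KO against WT, 11 of the 94 (11.7%) had a listed site, all lower, against 10.8% of coding genes. In placebo-treated KO against WT, 14 of the 94 (14.9%) had one, all lower, against 12.5% of coding genes. These shares are near the background, but the 10 genes, picked for having listed sites, were taken out first, which lowers them. With the 10 included, 20 of the 104 genes had a site in SAMe-treated KO against WT and 24 in placebo-treated KO against WT. Those counts include genes picked for being listed, so neither way of counting tells whether the list differs from the background. The sites of the 94 other genes had a median of −23.2 points in SAMe-treated KO and −23.3 points in placebo-treated KO in the authors' deposited tables.

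By role, the counts among these other genes are small, and were read beside the shares of 10.8% (SAMe) and 12.5% (placebo) of all coding genes. They too leave out the genes picked for having listed sites. None of 12 cell cycle and p53 pathway genes (Mdm2, Cdkn1a, Cdkn2a, Rb1 and Ccnd1 among them) had a listed site in any comparison. The same held for 6 genes labelled as brakes of JAK-STAT signalling and for 7 Hippo pathway genes. In groups of this size such shares amount to few genes or none. Of 12 Ras and MAP kinase brakes, 1 had a site in SAMe-treated KO and 4 in placebo-treated KO, counts too small to set apart from those shares. Listed in placebo-treated KO were Rasal1 (−20.9) and Rasal2 (−23.6), which like Dab2ip are Ras GTPase-activating proteins, the phosphatase Dusp5 (−20.5) and Spry4 (−21.7) in the authors' deposited table. Of 11 Wnt pathway genes only Dkk3, a member of the Dickkopf family, was listed, at −26.6 points in SAMe-treated KO and −21.2 points in placebo-treated KO in the authors' deposited tables.

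Among 8 other receptor genes, Igf1r and Il6st were listed for both groups. Igf1r, the receptor of insulin-like growth factor 1, stood at −26.5 points in SAMe-treated KO and −41.3 points in placebo-treated KO at 1 position in the authors' deposited tables. Il6st, the shared signalling chain of interleukin-6 type cytokines, stood at −27.1 points at its lowest site in SAMe-treated KO in the authors' deposited table. Its lowest site in placebo-treated KO, at −29.1 points in the authors' deposited table, was a different cytosine. These Il6st values therefore do not compare the groups at the same site. Of 8 other ligands, Tgfb1 was listed for SAMe-treated KO (−20.8) and Igf2 for placebo-treated KO (−23.3) in the authors' deposited tables. Of 20 further suppressors and oncogenes, Arid2 stood at −32.4 points in SAMe-treated KO and −22.9 points in placebo-treated KO, and the adhesion gene Cdh1 at −23.1 points in SAMe-treated KO and −23.5 points in placebo-treated KO, in the authors' deposited tables. Dlc1 (−28.1) and Nfe2l2 (−22.4) were listed for placebo-treated KO in the authors' deposited table. A site counted for Tsc2, which restrains mTOR signalling, stood at −23.6 points in SAMe-treated KO in the authors' deposited table, but lay 1941 bp outside Tsc2 and inside the neighbouring gene Pkd1.

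Of 10 other fetal and progenitor genes, Prom1 and Sox9 were listed for both groups. Sox9, a transcription factor of bile duct and progenitor cells, stood at −31.4 points at its lowest site in SAMe-treated KO in the authors' deposited table. Its lowest site in placebo-treated KO, at −27.1 points in the authors' deposited table, was a different cytosine. These Sox9 values therefore do not compare the groups at the same site. Prom1, which encodes the progenitor marker CD133, held the only listed position in the whole list of 104 genes that fell in a promoter window of its gene. Position 44101961 of chromosome 5, 225 bp before an annotated start, stood at −22.1 points in SAMe-treated KO (q = 1.08e-04) and −21.2 points in placebo-treated KO (q = 2.36e-05) in the authors' deposited tables. A second Prom1 position, 44102215, outside the window, was listed for placebo-treated KO alone, at −21.6 points in the authors' deposited table. The window (chr5:44101687-44101986, minus strand, GRCm38.p6, RefSeq) is printed 5′ to 3′ with the CpG of that cytosine in capitals.
Prom1: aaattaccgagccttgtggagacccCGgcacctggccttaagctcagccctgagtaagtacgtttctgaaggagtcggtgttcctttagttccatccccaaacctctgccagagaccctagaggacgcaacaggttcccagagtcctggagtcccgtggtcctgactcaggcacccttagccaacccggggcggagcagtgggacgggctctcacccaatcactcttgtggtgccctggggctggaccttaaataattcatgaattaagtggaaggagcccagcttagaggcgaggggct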

How the data were processed

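Reduced-representation bisulfite libraries of liver DNA from 19 mice were processed by the authors with CASAVA 1.8.2, Trim Galore, Bismark and methylKit on mm10, per the submitters' processing notes, where neither their order nor their settings are recorded. The authors deposited 3 tables with 1 cytosine per line, its p-value, its q-value and its methylation difference in percentage points. Which test gave the p-values is not given in the sources used here. Depth per sample is unknown.

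Sites were assigned with Python 3.11.15 and pandas 2.3.3 to every gene within 2 kb of either end of its RefSeq extent (GRCm38.p6, the assembly behind mm10). All 102 pairs of a listed site and a promoter window that holds it lay at a CG, which checks build and strand. The assignment was tested on simulated data. No test was run here: the members, the wider list and the alternatives were chosen with earlier results of these data known. All sites of the 10 genes are described, and of the other listed genes the site with the largest absolute difference in each comparison, except for an item not reported here. Alternatives were other windows, stricter limits and the nearest gene alone.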

Additional observations from a re-analysis of the deposited data

Results flagged for a closer look

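Spry4, an inhibitor of receptor tyrosine kinase signalling, was the only one of the 104 genes with a site in the authors' table of SAMe-treated against placebo-treated KO. At position 38591433 of chromosome 18 SAMe-treated KO minus placebo-treated KO was −24.9 points (q = 6.75e-04) in the authors' deposited table. SAMe-treated KO stood at −35.1 points from WT there in the authors' deposited table, and placebo-treated KO at −10.2 points by addition. With 1 of 94 other genes (1.06%) against 0.658% of all coding genes, a single such gene is near the background.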

How the results depend on the processing

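Every listed site of the 10 genes was lower in KO, so neither a narrower window nor a gene's median could turn a direction. These alternatives say nothing about its stability. With sites inside genes only, the Rassf1 site and the upstream Tgfa sites were no longer counted. With sites given to the nearest gene alone, only the Rassf1 site was lost. The window of 10 kb could have brought in a higher site, but added only position 134916599 near Cdkn1b. That position stood at −24.9 points in SAMe-treated KO and −22.7 points in placebo-treated KO. With it, Cdkn1b was also counted in SAMe-treated KO against WT. Many counts could not move, since those of the 10 genes between the KO groups are 0 and no site of the 10 genes has a q-value near 0.001. The counts that moved by over 1.5 times all came from requiring an absolute difference of at least 25 points, a stricter limit that leaves fewer sites. SAMe-treated KO against WT then had 17 listed sites in the 10 genes, all 17 lower, in place of 26. Smaller falls came at the same limit. Placebo-treated KO against WT had 21 listed sites in the 10 genes in place of 27. Of the 10 genes, 7 still had a site in SAMe-treated KO against WT in place of 9. In placebo-treated KO against WT 7 still had one in place of 10. The list of 104 genes then had 13 genes with a site in SAMe-treated KO against WT in place of 20, 11 in placebo-treated KO against WT in place of 24, and 0 between the KO groups in place of 1. No paired analysis was possible because the tables hold no value for any animal and the labels pair no animals, and for the same reason no animal could be left out. Coverage of sites that were not listed is unknown.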
